A study of Mus musculus with 6 samples.

Results

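The genes described here are 38 genes of fatty acid uptake and beta-oxidation, chosen by name for their roles with earlier results of these data known. They were found by symbol among the 24411 genes listed for the soleus (Sol) muscle of mice after voluntary wheel running (VWR). All 38 passed the expression filter that left 12828 genes tested. They were ordered by the route of a fatty acid into uptake (4 genes), activation (5), the carnitine shuttle (5), malonyl-CoA control (2), oxidation in the mitochondrial matrix (13), a peroxisomal thiolase (1), electron transfer (3), acyl-CoA thioesterases (3) and uncoupling proteins (2). RNA was sequenced from 3 WT and 3 LSD1-mKO mice, with 1 library per mouse, and the question put to these libraries was which genes LSD1 regulates in Sol under VWR. LSD1, encoded by Kdm1a, is a histone demethylase that removes methyl groups from lysine residues. All mice were males that carried the Lsd1-floxed allele on a C57BL/6 background. LSD1-mKO mice also carried ACTA1-CreERT2, a tamoxifen-activated Cre recombinase under the human ACTA1 promoter, which is active in differentiating and differentiated muscle cells, so that other cells of the muscle keep the gene. WT mice had no CreERT2. Both genotypes were 8 weeks old at the start and were housed singly with a wheel for 38 days. Both received tamoxifen at 75 mg/kg on 5 days after 3 days of familiarization, and were fasted off the wheel before Sol was taken. The series has no sedentary mice, so the comparison is between genotypes after VWR and not between trained and untrained muscle.

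Slow and oxidative fibers, which make up much of Sol, draw on fatty acids for sustained work. Fatty acids enter the fiber with the help of CD36 and fatty acid transport proteins, are carried by the binding protein FABP3, and are linked to coenzyme A by acyl-CoA synthetases. The carnitine shuttle moves long-chain acyl groups into the mitochondrial matrix, and malonyl-CoA acts as the brake on its first enzyme, CPT1, in the outer membrane. In the matrix each turn of beta-oxidation shortens the chain and passes electrons through the electron transfer flavoprotein to the respiratory chain. Thioesterases split acyl-CoA back into free fatty acid and coenzyme A.

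The files held estimated counts per gene, with totals from 8940206 to 13798059 per mouse. Levels are given as counts per 1000000 after TMM normalization (CPM) where mice are compared, and as transcripts per 1000000 (TPM), which allow for transcript length, where genes are compared. The test for each gene was the quasi-likelihood test of edgeR, adjusted over all 12828 genes by Benjamini-Hochberg, and log2 fold changes are LSD1-mKO minus WT with 95% intervals. Kdm1a measured 40.5, 38.2 and 33.6 CPM in the WT mice against 14.6, 16.6 and 16.6 in the LSD1-mKO mice, with no overlap (log2 fold change -1.23, adjusted p = 0.016 from edgeR). With 1 mouse left out its log2 fold change stayed between -1.30 and -1.17, but in 4 of 6 fits its adjusted p from edgeR was above the threshold, from 0.111 to 0.209, and with the replicate number as a block it was 0.299. The labelled tissue carried its markers: the slow myosin Myh7 ran from 11233 to 15151 CPM and the type IIA myosin Myh2 from 14850 to 26503 CPM, while the type IIB myosin Myh4 did not exceed 40.6 CPM.

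The sequences upstream of 4 member loci are shown because the results that follow turn on these genes. Acot1 and Acot2 are neighbouring genes on chromosome 12 whose longest coding transcripts shared 80.9% of 1915 aligned bases, and only the former stood apart between genotypes. Acsl6 was the other member that was higher in LSD1-mKO at an unadjusted p under 0.05. Hadha and Hadhb, which encode both subunits of the mitochondrial trifunctional protein, lie head to head on chromosome 5 with 85 bases between them, shown from the Hadha side. The sequences are from RefSeq (GRCm38.p6), begin up to 250 bases before the transcription start, and end where the annotated gene begins. Capitals mark a match to TCAAGGTCA on the opposite strand.
Acot1 (chr12:84009252-84009489, + strand): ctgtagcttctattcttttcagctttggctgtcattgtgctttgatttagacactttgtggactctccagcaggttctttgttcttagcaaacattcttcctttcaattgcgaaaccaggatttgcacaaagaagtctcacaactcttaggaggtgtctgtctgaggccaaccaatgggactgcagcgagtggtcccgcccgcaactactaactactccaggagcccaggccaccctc
Acot2 (chr12:83987611-83987860, + strand): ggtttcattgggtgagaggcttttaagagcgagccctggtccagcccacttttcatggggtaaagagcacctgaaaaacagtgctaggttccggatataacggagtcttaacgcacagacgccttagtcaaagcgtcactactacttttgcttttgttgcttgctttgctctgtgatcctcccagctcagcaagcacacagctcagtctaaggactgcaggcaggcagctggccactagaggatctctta
Acsl6 (chr11:54303574-54303797, + strand): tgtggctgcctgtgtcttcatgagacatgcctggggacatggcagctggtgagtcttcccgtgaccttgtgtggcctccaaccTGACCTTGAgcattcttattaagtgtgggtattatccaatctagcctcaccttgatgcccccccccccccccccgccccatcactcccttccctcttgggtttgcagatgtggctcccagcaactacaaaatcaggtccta
Hadha to Hadhb (chr5:30155163-30155247, + strand): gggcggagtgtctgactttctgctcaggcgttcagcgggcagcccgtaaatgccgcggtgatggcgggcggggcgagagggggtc

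Of the 38 members, 32 had a promoter in the RefSeq table. TCAAGGTCA, the extended half-site bound by estrogen-related receptors, was searched on both strands in the 250 bases before each start. It was found in 1 of the 32 members (3.12%), Acsl6, and in 0.422% of 27025 genes. A gene was counted if the window of any of its listed starts held a match. In Acsl6 the match lay 167 bases before the most upstream start, and the windows of its other starts held none. That start lies past the end of the sequence printed above. With any base at the second position (TNAAGGTCA) the counts were 1 of 32 and 1.3%. The DR1 element bound by PPAR with RXR, searched as AGGTCA repeated with any 1 base between, was in 0 of 32 members and in 0.0407% of all genes. Both motifs contain AGGTCA. A match describes the letters of the window only, and the absence of one says only that these letters are not in this window.

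Over the 38 members, the levels in LSD1-mKO Sol were slightly above those in WT, with 1 member, Acot1, far from the rest. No member passed the edgeR threshold (0 of 38 at an adjusted p under 0.05, against 0.0078% of all genes in each direction). At an unadjusted p under 0.05, 2 members were higher in LSD1-mKO (Acot1 and Acsl6) and 1 was lower (Acsl3), against 3.52% of all genes higher and 2.88% lower. DESeq2 called 1 member higher, Acot1, against 0.257% of all genes, and 0 lower. The fitted log2 fold change was above 0 for 30 members, against 45.2% of all genes. The list was chosen with earlier results of these data known and most members varied together, so this count is a description only. The median log2 fold change over the members was 0.11, against -0.02 over all genes tested. The values of the members other than Acot1, Acsl6 and Acsl3 lay between -0.15 and 0.25. The CPM of the genotypes did not overlap for 3 members that were higher in LSD1-mKO (Acot1, Acsl6 and Acsl4; 6.62% of all genes) and for 1 that was lower (Slc27a4; 6.1%).

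**Figure D1:**
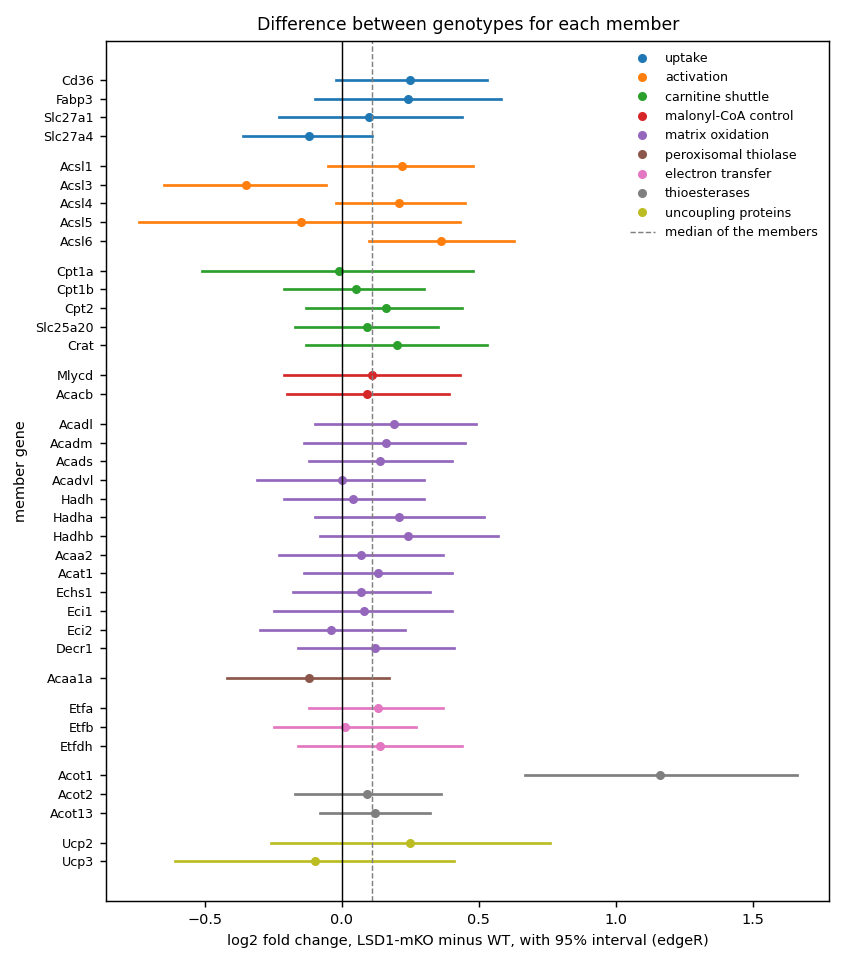
Log2 fold change of each of the 38 members, LSD1-mKO minus WT, with its 95% interval from edgeR, grouped and colored by step (3 mice per genotype). Most points lie slightly to the right of 0 around the dashed median of 0.11 with intervals that include 0, Acot1 stands apart at 1.16, and Acsl3 is the member farthest to the left at -0.35.

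The members spanned a wide range of abundance, and together they made up 1.61% of all transcripts in WT and 1.79% in LSD1-mKO by TPM. Their summed TPM was 17090, 16063 and 15233 in the WT mice and 15882, 18396 and 19561 in the LSD1-mKO mice, in order of replicate, so that LSD1-mKO replicate 1 lay within the WT range. Fabp3 was the most abundant member at 4366 ± 341 TPM in WT and 5153 ± 631 in LSD1-mKO (SD, n = 3). Hadhb followed at 1126 ± 74.0 TPM in WT and 1329 ± 189 in LSD1-mKO (SD, n = 3). Acsl6, at 6.31 ± 0.29 TPM in WT and 8.05 ± 0.52 in LSD1-mKO (SD, n = 3), was the lowest in WT, and Acsl5, at 8.35 ± 3.54 and 7.38 ± 0.68 (SD, n = 3), the lowest in LSD1-mKO.

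**Figure D2:**
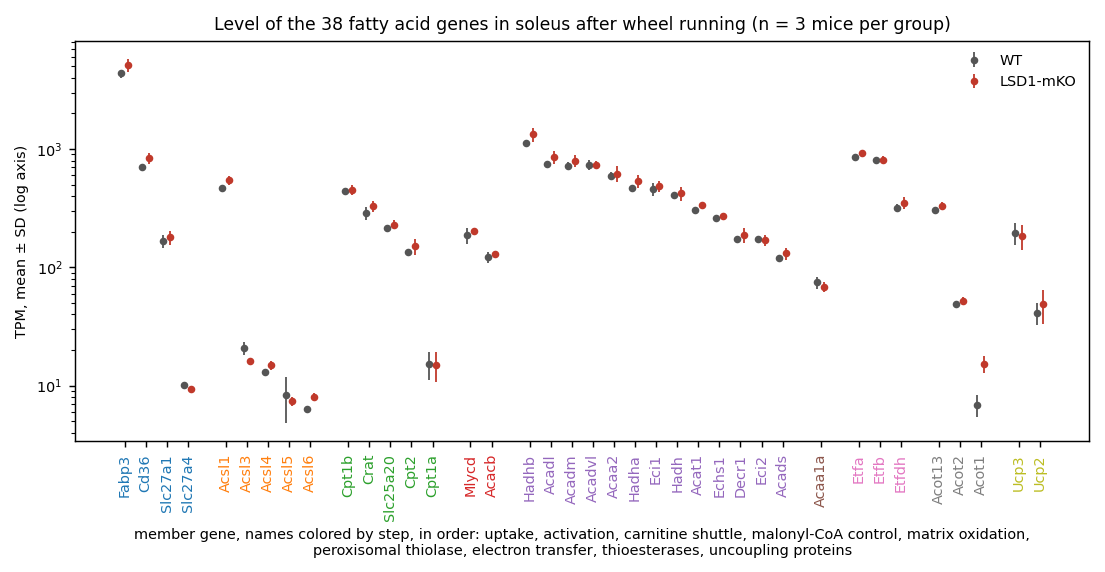
Level of each member in TPM on a log axis, as mean ± SD of 3 WT (grey) and 3 LSD1-mKO (red) mice, with gene names colored by step. Fabp3 leads at 4366 TPM in WT and 5153 in LSD1-mKO, the 13 matrix enzymes lie between 119 and 1329 TPM, and within the synthetases Acsl1 is far above Acsl3, Acsl4, Acsl5 and Acsl6.

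For the uptake genes the log2 fold change had a median of 0.17, and none passed the threshold (0 of 4; adjusted p from 0.766 to 0.909). Fabp3, the cytosolic carrier of fatty acids in heart and muscle, measured 1916, 1452 and 1514 CPM in WT and 1679, 1958 and 2126 CPM in LSD1-mKO. The groups overlapped, because WT replicate 1 was above LSD1-mKO replicate 1 (log2 fold change 0.24, interval -0.10 to 0.58). Cd36, the fatty acid translocase of the sarcolemma, had a log2 fold change of 0.25 (interval -0.02 to 0.53), with 704 ± 7.97 TPM in WT and 836 ± 94.7 in LSD1-mKO (SD, n = 3). In CPM, WT replicate 1 reached the level of LSD1-mKO replicate 1, at 1184 and 1183. In TPM the WT mice ran from 696 to 712 and the LSD1-mKO mice from 763 to 943, so this overlap depended on the scaling. Slc27a1, which encodes the transport protein FATP1, had a log2 fold change of 0.10 (interval -0.23 to 0.44). Slc27a4, which encodes FATP4, measured 20.0, 17.4 and 18.5 CPM in WT and 17.0, 17.4 and 16.8 CPM in LSD1-mKO. Every LSD1-mKO mouse was below every WT mouse, by less than the rounding of these values for replicate 2 of each genotype, and the difference was small (log2 fold change -0.12, interval -0.36 to 0.11, adjusted p = 0.85 from edgeR).

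The activation step held differences in both directions. The 5 long-chain acyl-CoA synthetases had log2 fold changes from -0.35 to 0.36 and a median of 0.21. Acsl1, the main synthetase of oxidative tissue, measured 916, 800 and 763 CPM in WT and 999, 856 and 1024 CPM in LSD1-mKO. Only WT replicate 1 and LSD1-mKO replicate 2 crossed (log2 fold change 0.22, interval -0.05 to 0.48, adjusted p = 0.777 from edgeR). Acsl6, a synthetase best known from brain, measured 18.7, 15.5 and 15.5 CPM in WT and 21.2, 22.6 and 19.8 CPM in LSD1-mKO. The genotypes were fully separated, with LSD1-mKO higher. The fold was 1.29 (interval 1.07 to 1.55), with an unadjusted p of 0.0138 and an adjusted p of 0.657 from edgeR. Acsl4, which prefers arachidonic acid, measured 31.7, 28.0 and 32.1 CPM in WT and 34.8, 32.8 and 38.8 CPM in LSD1-mKO. These groups also did not overlap, with less than 1 CPM between the nearest mice (fold 1.16, interval 0.985 to 1.36, adjusted p = 0.766 from edgeR).

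Acsl3, the synthetase of the endoplasmic reticulum and lipid droplets, went the other way. It measured 40.4, 29.8 and 40.5 CPM in WT and 27.8, 29.0 and 29.9 CPM in LSD1-mKO. The LSD1-mKO mice lay close together at the level of WT replicate 2, and the other 2 WT mice were higher. The fold was 0.783 (interval 0.638 to 0.961), with an unadjusted p of 0.0249 and an adjusted p of 0.717 from edgeR. With 1 mouse left out, the unadjusted p was under 0.05 in 2 of 6 fits, those without WT replicate 2 or LSD1-mKO replicate 3. Acsl5, found in mitochondria and endoplasmic reticulum, measured 8.92 CPM in WT replicate 1 against 19.4 and 18.7 CPM in the other WT mice, with LSD1-mKO mice from 12.8 to 15.5 CPM between them (log2 fold change -0.15, interval -0.74 to 0.43).

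**Figure D3:**
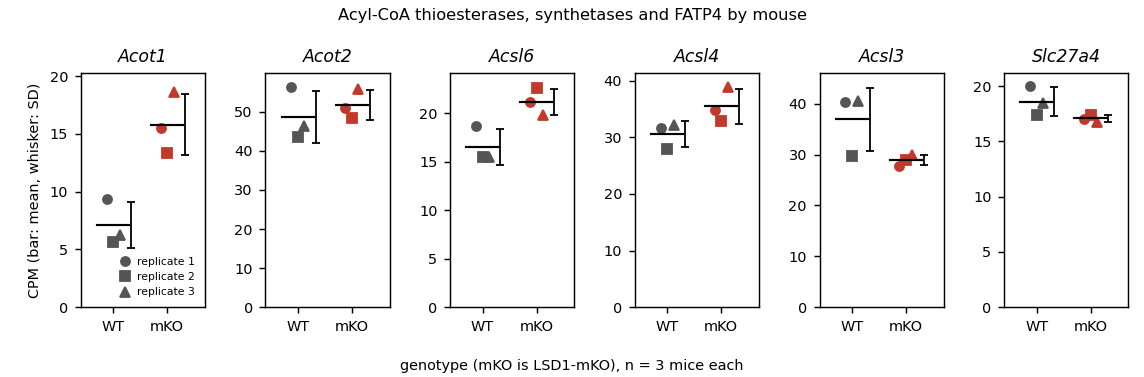
CPM of 6 members in each mouse, with the mean (bar) and SD (whisker) of 3 mice per genotype, marker shape giving the replicate number, and every axis starting at 0. Acot1 separates the genotypes widely while its neighbour Acot2 does not; Acsl6 and Acsl4 are higher in every LSD1-mKO mouse, Acsl3 is lower than 2 of the 3 WT mice, and Slc27a4 differs by little.

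Carnitine shuttle genes had 0 of 5 past the threshold and 0.09 as the median log2 fold change (adjusted p from 0.820 to 0.992). Cpt1b, the muscle form of the rate-setting transferase and the highest in TPM of this step, measured 639, 532 and 550 CPM in WT and 534, 605 and 636 CPM in LSD1-mKO. The WT and LSD1-mKO ranges lay almost on top of each other (log2 fold change 0.05, interval -0.21 to 0.30), so that a mean difference above 1.23-fold in favour of LSD1-mKO lay outside the interval. Cpt1a, the liver form, was lower than Cpt1b in TPM by 31.3-fold, and measured 22.4, 32.5 and 33.3 CPM in WT and 38.7, 23.1 and 26.0 CPM in LSD1-mKO (log2 fold change -0.01, interval -0.51 to 0.48). Cpt2, which rebuilds acyl-CoA on the matrix side, had a log2 fold change of 0.16 (interval -0.13 to 0.44). The carnitine-acylcarnitine carrier Slc25a20 had 0.09 (interval -0.17 to 0.35), and the carnitine acetyltransferase Crat 0.20 (interval -0.13 to 0.53). The opposing enzymes of malonyl-CoA had fitted values on the same side of 0: Mlycd, which degrades it, had a log2 fold change of 0.11 (interval -0.21 to 0.43), and Acacb, the acetyl-CoA carboxylase at the mitochondrial surface that makes it, 0.09 (interval -0.20 to 0.39). Mlycd, the higher of the pair in TPM, measured 215, 182 and 146 CPM in WT and 180, 200 and 205 CPM in LSD1-mKO. WT mice spread over a wider range than LSD1-mKO mice and enclosed them.

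Of the 13 matrix enzymes, 11 had a fitted level above WT, with log2 fold changes from -0.04 to 0.24 and a median of 0.12, and none passed the threshold (0 of 13; adjusted p from 0.777 to 0.996). Hadhb, the thiolase subunit of the trifunctional protein, had the largest value in this step and measured 1200, 974 and 954 CPM in WT and 1049, 1268 and 1381 CPM in LSD1-mKO. Hadha, the subunit with hydratase and long-chain dehydrogenase activity, measured 966, 808 and 759 CPM in WT and 847, 997 and 1089 CPM in LSD1-mKO. The head-to-head pair ordered the 6 mice in the same way, with LSD1-mKO replicates 3 and 2 highest, WT replicate 1 next and LSD1-mKO replicate 1 between it and the other WT mice. Their log2 fold changes were 0.24 (interval -0.08 to 0.57) and 0.21 (interval -0.10 to 0.52).

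The acyl-CoA dehydrogenases, which catalyse the first step of each turn and differ in chain length, gave 0.19 for Acadl (interval -0.10 to 0.49), 0.16 for Acadm (-0.14 to 0.45), 0.14 for Acads (-0.12 to 0.40) and -0.00 for Acadvl (-0.31 to 0.30) as log2 fold changes. Acadvl, the very-long-chain enzyme, thus had a mean of 726 ± 124 CPM in WT and 723 ± 52.2 in LSD1-mKO (SD, n = 3). The hydratase Echs1 gave 0.07, the short-chain hydroxyacyl-CoA dehydrogenase Hadh 0.04, and the thiolases Acaa2 and Acat1 0.07 and 0.13. The auxiliary enzymes for unsaturated chains gave 0.08 (Eci1), -0.04 (Eci2) and 0.12 (Decr1). Acaa1a, the peroxisomal thiolase, was the only single-gene step, and measured 68.7, 59.2 and 50.7 CPM in WT and 48.5, 56.5 and 58.7 CPM in LSD1-mKO. The groups overlapped (log2 fold change -0.12, interval -0.42 to 0.17, adjusted p = 0.879 from edgeR).

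The electron transfer flavoprotein and its dehydrogenase, which hand the electrons to ubiquinone, had log2 fold changes of 0.13 (Etfa), 0.01 (Etfb) and 0.14 (Etfdh). Etfa measured 611, 511 and 499 CPM in WT and 559, 610 and 598 CPM in LSD1-mKO. WT replicate 1 and LSD1-mKO replicate 2 were nearly level as the highest, and the other WT mice were the lowest (interval -0.12 to 0.37, adjusted p = 0.859 from edgeR). In TPM, WT replicate 1 was at 898, below LSD1-mKO replicates 2 and 3 at 970 and 951. The uncoupling proteins of the inner membrane overlapped widely. Ucp3, the muscle form, measured 252, 153 and 249 CPM in WT and 154, 208 and 247 CPM in LSD1-mKO (log2 fold change -0.10, interval -0.61 to 0.41). Ucp2 had a log2 fold change of 0.25 (interval -0.26 to 0.76), with a SD of 27.5 CPM around a mean of 87.6 in LSD1-mKO.

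Acot1, a cytosolic acyl-CoA thioesterase, was the member with the largest difference. It measured 9.39, 5.62 and 6.27 CPM in WT and 15.5, 13.3 and 18.6 CPM in LSD1-mKO, on estimated counts of 62.4 to 210.0 per mouse. The genotypes were fully separated, and the gap between the nearest mice, WT replicate 1 and LSD1-mKO replicate 2, was slightly wider than the whole WT range. The log2 fold change was 1.16 (standard error 0.22), a fold of 2.24 (interval 1.59 to 3.16). The unadjusted p was 0.000569 and the adjusted p 0.281 from edgeR, and DESeq2 gave an adjusted p of 0.0027. Over the alternatives the adjusted p ran from 0.0027 to 0.998, and with each mouse left out in turn the log2 fold change stayed between 1.02 and 1.40. The exact permutation test on CPM gave p = 0.1 (2-sided), the smallest that 3 mice against 3 allow.

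Acot2, the mitochondrial relative of Acot1, measured 56.3, 43.5 and 46.3 CPM in WT and 51.0, 48.5 and 55.9 CPM in LSD1-mKO. The groups overlapped, with WT replicate 1 and LSD1-mKO replicate 3 nearly level as the highest (log2 fold change 0.09, interval -0.17 to 0.36). In TPM these 2 mice were at 52.4 and 56.4. Of the 75-base words of the longest coding Acot1 transcript, 26.4% also occur in other genes. Those sharing most words were, in falling order, Acot2, 4732463B04Rik, whose level is not given here, and Acot3 and Acot5 of the Acot gene cluster. Part of the Acot1 reads thus cannot be assigned with certainty, and how the counting split them is not given in the sources used here. The further genes of the cluster were low: Acot6 ran from 4.77 to 8.41 CPM with a log2 fold change of -0.18, and Acot3, Acot4 and Acot5 did not exceed 15.3 estimated counts in any mouse. Acot13, a thioesterase of mitochondria and cytosol, led this step in TPM and measured 103, 94.1 and 101 CPM in WT and 104, 102 and 117 CPM in LSD1-mKO. Only WT replicate 1 and LSD1-mKO replicate 2 crossed (log2 fold change 0.12, interval -0.08 to 0.32, adjusted p = 0.824 from edgeR).

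Ratios within a mouse, which do not depend on library scaling, were compared for 4 pairs of related enzymes with an exact permutation test (2-sided, smallest possible p 0.1) and adjustment over the 4 pairs. The log2 ratio of Acot1 to Acot2 was -2.58, -2.95 and -2.88 in WT and -1.72, -1.87 and -1.59 in LSD1-mKO. The genotypes did not overlap, and the difference was 1.08 (exact permutation p = 0.1, adjusted 0.4). The ratio of Cpt1a to Cpt1b differed by -0.07 on the log2 scale (exact permutation p = 1.0), that of Ucp2 to Ucp3 by 0.31 (p = 0.3, adjusted 0.6) and that of Mlycd to Acacb by 0.02 (p = 0.8, adjusted 1.0). With 3 mice per genotype, none of the 4 could have passed the threshold.

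Side by side, the median log2 fold changes of the steps were 0.17 for uptake, 0.21 for activation, 0.09 for the carnitine shuttle and 0.12 for the matrix enzymes. When each mouse was left out in turn these medians ran from 0.09 to 0.29, from 0.15 to 0.28, from 0.07 to 0.20 and from 0.06 to 0.23. The 4 ranges overlapped, and the order of the steps was not tested. In summed TPM, uptake genes were 17.7% higher in LSD1-mKO (5248 ± 363 against 6177 ± 735), activation genes 13.8% (518 ± 21.9 against 590 ± 51.9), shuttle genes 7.52% (1094 ± 56.6 against 1176 ± 113) and matrix genes 9.21% (6295 ± 394 against 6875 ± 802; SD, n = 3 for each). The sums for uptake and activation follow the most abundant gene of the step, Fabp3 and Acsl1. In the shuttle the most abundant gene, Cpt1b, was at 439 TPM in WT and 451 in LSD1-mKO, and Crat at 287 and 329.

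The levels of most members varied together from mouse to mouse within a genotype. Averaged over the 38, the deviation of log2 CPM from the mean of the 6 mice was 0.08, -0.15 and -0.12 in the WT mice and -0.06, 0.08 and 0.17 in the LSD1-mKO mice, in order of replicate. WT replicate 1 was the highest WT mouse for 33 of the 38 members, against 39.9% of all genes, and LSD1-mKO replicate 1 was the lowest LSD1-mKO mouse for 28, against 36.1%. Among the 13 matrix enzymes both orders held for 13 of 13. Among the 5 activation genes the first order held for 2 and the second for 1, and among the 3 thioesterases for 3 and 0. These orders are in CPM and depend on the scaling, in which WT replicate 1 had the lowest TMM factor, 0.9287. In TPM, WT replicate 2 was the highest WT mouse for Hadh (395, 438 and 401) and Acaa2 (599, 634 and 543). The summed TPM of the 13 matrix enzymes was still highest of WT in WT replicate 1, at 6643, 6376 and 5867. By the average over the 38, WT replicate 1 was level with LSD1-mKO replicate 2 and above LSD1-mKO replicate 1. Without WT replicate 1, 14 members were higher at an unadjusted p under 0.05 (6.43% of all genes then) and 1, Acsl5, was lower (7.98%), the median log2 fold change was 0.22, and 0 members were called, with 0.0886 as the lowest adjusted p. Without LSD1-mKO replicate 1 the count of higher members was 5 (Acot1, Acsl6, Cpt2, Hadhb and Ucp2), against 3.47% of all genes. It was 1 (Acot1) without WT replicate 2, against 2.97% of all genes, and 1 (Acot1) without WT replicate 3, against 2.34%. It was 2 without LSD1-mKO replicate 2 (Acot1 and Acsl4), against 3.37%, and 2 without LSD1-mKO replicate 3 (Acot1 and Acsl6), against 2.08%. Acsl3 was the 1 lower member without WT replicate 2 (2.71% of all genes) and without LSD1-mKO replicate 3 (1.7%), and 0 members were lower without WT replicate 3 (1.8%), LSD1-mKO replicate 1 (3.87%) or LSD1-mKO replicate 2 (2.22%).

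**Figure D4:**
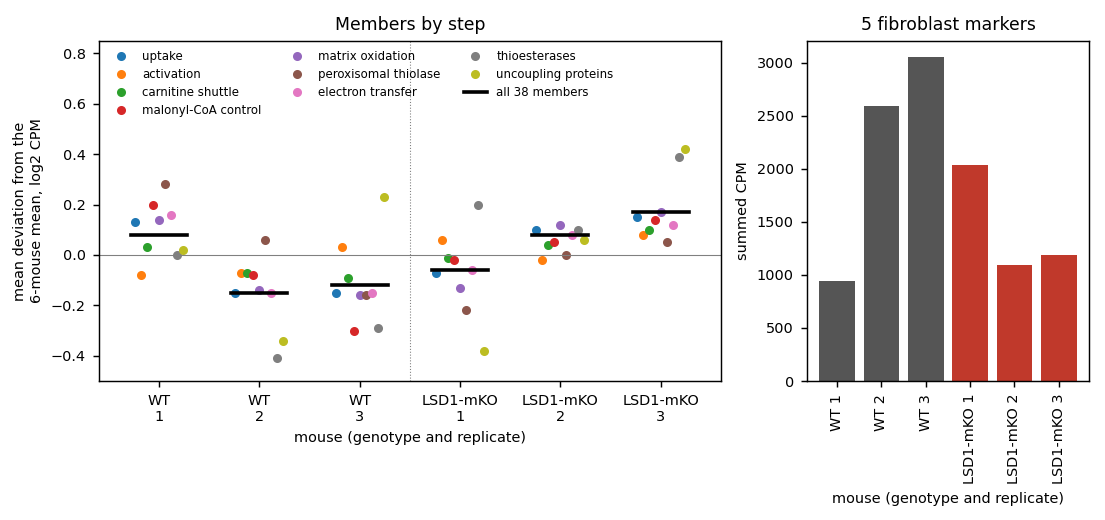
Left, mean deviation of log2 CPM from the mean of the 6 mice for the members of each step (colored points) and for all 38 members (black bars), by mouse; right, summed CPM of 5 fibroblast markers in the same mice. WT replicate 1 and LSD1-mKO replicates 2 and 3 have the higher member levels and the lowest fibroblast sums, from 943 to 1187, while WT replicates 2 and 3 have the lowest member levels and the highest fibroblast sums, 2593 and 3054.

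The summed fibroblast, macrophage and endothelial markers were lowest in the mice with the higher member levels. The summed CPM of 5 fibroblast markers (Pdgfra, Dcn, Col1a1, Col3a1, Lum) was 943, 2593 and 3054 in WT and 2033, 1096 and 1187 in LSD1-mKO. That of 5 macrophage and leukocyte markers was 24.0, 103 and 82.1 in WT and 67.3, 29.1 and 40.0 in LSD1-mKO. Both sums were lowest in WT replicate 1 and in LSD1-mKO replicates 2 and 3, and their part in the member levels was not tested. In whole muscle, fewer cells of a type and less RNA per cell cannot be told apart. Acsl5 and Cpt1a ran against most other members and with these markers, since both were lowest in WT replicate 1 and, within LSD1-mKO, highest in replicate 1. All of the 5 fibroblast and 5 macrophage markers had fitted log2 fold changes below 0 (medians -0.51 and -0.62), and 0 passed an unadjusted p of 0.05.

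Adipocyte markers summed to 128 to 201 CPM, with Adipoq from 13.3 to 21.0 CPM, and 0 of 6 passed an unadjusted p of 0.05. Of the brown fat markers Ucp1 was at 0 in every mouse and Cidea ran from 7.29 to 14.8 CPM. The summed CPM of 6 endothelial markers was 472, 689 and 568 in WT and 593, 502 and 514 in LSD1-mKO. This sum was again lowest in WT replicate 1 and LSD1-mKO replicates 2 and 3. Pecam1, Cdh5 and Tek were each lowest in those mice, while Kdr, Tie1 and Emcn were not. Emcn was at 19.0 CPM in LSD1-mKO replicate 1 and at 24.1 and 24.8 CPM in replicates 2 and 3. Red blood cell markers summed to 201 to 535 CPM, with 1 of 5 (Hba-a1) at an unadjusted p under 0.05, and Schwann cell markers to 36.0 to 51.7 CPM. Fiber markers overlapped between genotypes. Of the 7 slow fiber genes, 6 had a fitted level above WT and 1 below. Their median log2 fold change was 0.15, and 0 passed an unadjusted p of 0.05. Of the 9 fast glycolytic fiber genes, 4 were fitted above WT and 5 below (median -0.00), and Myh2 had a log2 fold change of -0.25. The 7 slow fiber genes summed to 32173 to 40012 CPM in WT and 34642 to 41943 CPM in LSD1-mKO, Myh2 ran from 17950 to 26503 CPM in WT and from 14850 to 20032 CPM in LSD1-mKO, and the 9 fast glycolytic fiber genes summed to 32258 to 46831 CPM in WT and 35430 to 41947 CPM in LSD1-mKO, with 1 of 9 (Actn3) at an unadjusted p under 0.05.

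Beyond the members, 42 further genes of fatty acid metabolism were listed, and 38 of them were tested. Of these 0 passed the threshold, 27 had a fitted level above WT and 11 below, and the median log2 fold change was 0.08. At an unadjusted p under 0.05, 4 were higher and 1 was lower, against 3.52% and 2.88% of all genes. Acsf2, a mitochondrial acyl-CoA synthetase, had a log2 fold change of 0.42 (adjusted p = 0.578 from edgeR), measuring 13.7, 16.2 and 16.2 CPM in WT and 18.9, 22.0 and 21.1 CPM in LSD1-mKO. Acadsb, a dehydrogenase for short branched chains, had 0.26 (adjusted p = 0.66 from edgeR), measuring 169, 151 and 165 CPM in WT and 195, 184 and 204 CPM in LSD1-mKO. For both genes every LSD1-mKO mouse was above every WT mouse. Abcd2, a peroxisomal importer of very-long-chain acyl-CoA, had 0.21 with no overlap, and Phyh, which starts the oxidation of phytanic acid in peroxisomes, 0.35 with overlap. The lower gene was Gpihbp1, which anchors lipoprotein lipase on the capillary wall, at -0.26.

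Levels relative to the matrix enzymes of the same mouse were computed after the other values had been seen, as the log2 CPM of a member minus the mean log2 CPM of the 13 matrix enzymes, or of the other 12 for a matrix enzyme itself. They describe how the members stood within the pathway in each mouse and carry no test. On this scale 7 members separated the genotypes with LSD1-mKO higher and 4 with LSD1-mKO lower, against 1.92% and 8.09% of all genes. The higher ones were Fabp3 (difference 0.13), Acsl6 (0.25), Acadl (0.09), Acadm (0.05), Hadha (0.11), Hadhb (0.14) and Acot1 (1.07). The lower ones were Acsl3 (-0.45), Eci2 (-0.16), Acaa1a (-0.23) and Etfb (-0.10). Acadl, Acadm, Hadha, Hadhb and Eci2 were set against their own group, which varied with them across the mice, so small differences can separate the genotypes. The matrix enzymes had a median log2 fold change of 0.12 against -0.02 for all genes, which places other genes lower on this scale. The shares of all genes, taken against all 13 enzymes, are thus not a like measure for the members.

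The counting of some members is uncertain. Of the 75-base words of Cpt1b, 92.1% also lie in Gm44502, an annotated readthrough gene with its neighbour, and 66.3% of those of Etfb lie in Gm45233. For Hadhb 57.2% lie in the pseudogenes Gm13910 and Gm9108, for Acaa1a 27.3% in Acaa1b, and for Fabp3 26.0% in a pseudogene and overlapping genes. Acadvl overlaps Dvl2 on the other strand over 42.9% of its exonic bases, and whether the counting used strand is not given in the sources used here. Acaa1b itself did not exceed 2.84 estimated counts in any mouse. Cd36, Acsl1 and Ucp2 belong to a cluster that the study drew from these libraries because its genes were raised without LSD1, so their direction is not independent evidence.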

How the data were processed

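Poly(A) RNA of Sol muscle from 3 WT and 3 LSD1-mKO mice was sequenced by the authors as 75-base single-end reads, 1 library per mouse, and the reads were aligned to mm10 with STAR per the submitters' processing notes. The deposited table holds estimated counts per gene made by the authors, not normalized, of which 8.33% to 9.94% of the values per library are not whole numbers. The counting tool, the gene annotation and the use of strand are not given in the sources used here. The authors also deposited a DESeq2 table of means, log2 ratios, standard errors and p-values, which was not used.

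The estimated counts were rounded and compared with edgeR 4.0.16 (TMM, filterByExpr by genotype, quasi-likelihood test, Benjamini-Hochberg adjustment over 12828 genes, threshold 0.05) in R 4.3.3. Totals ran from 8940206 to 13798059. DESeq2 1.42.0 and limma 3.58.1 (voom), other scaling, other filters, the replicate number as a block and each mouse left out in turn were alternatives. Single values and ratios were compared by exact permutation over the 10 splits of 6 mice. TPM used the longest protein-coding transcript of GENCODE vM21 (lengths found for 23350 symbols as listed and for 677 by an older symbol, none for 384). Shared reads were estimated from 75-base words of the transcripts. Promoters were from the RefSeq table (GRCm38.p6). The tests were tried on simulated data. There DESeq2 called 21 and edgeR 9 of 12486 unchanged genes, and 87 and 79 of 106 genes changed 2-fold. All pairs of libraries differed by more than sampling noise. PCR copies are counted as reads, so counts are not numbers of molecules. The members and all gene lists (other fatty acid genes and markers of adipocytes, brown fat, endothelium, macrophages, fibroblasts, red blood cells, Schwann cells and fiber types) were chosen with earlier results of these data known. Every member is named, with values in all mice for those without overlap or with an unadjusted p under 0.05 and for the highest in TPM of each step; of the other fatty acid genes, up to 4 with the smallest p. Further genes named were chosen after their values were seen.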

Additional observations from a re-analysis of the deposited data

How the results depend on the processing

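The 38 members gave 494 pairs of a member and an alternative. Direction and side of the threshold were kept in 460 of them, 33 turned direction in 13 members, and Acot1 passed the threshold with DESeq2 (log2 fold change 1.17). Counts of all genes called higher and lower were 33 and 9 with DESeq2, 2 higher with voom, 8 and 3 without a filter on low counts, 1 to 2 and 0 to 1 with 1 mouse left out. In the fit with a replicate block, 0 genes were called lower and Kdm1a (-1.23) was past the threshold no longer. The labels number the mice and state no pairing. Deviations of same-numbered mice from their group means correlated at -0.352, -0.107 and -0.15. These values cannot tell whether same-numbered mice shared a litter or batch. The block changed no member's call. With 1 mouse left out Kdm1a ran from -1.30 to -1.17 and lost its call in 4 of 6 fits. DESeq2 called 1 member higher. With 1 mouse left out, 1 to 14 members were higher and 0 to 1 lower at an unadjusted p under 0.05, against 2.08% to 6.43% and 1.7% to 7.98% of all genes, and the median log2 fold change ran from 0.15 to 0.28 for activation and from 0.07 to 0.20 for the shuttle. The members that turned direction with 1 mouse left out were Slc27a1 (-0.01 to 0.25), Acsl5 (-0.42 to 0.03), Cpt1a (-0.27 to 0.14), Cpt1b (-0.01 to 0.13), Mlycd (-0.02 to 0.25), Acadvl (-0.09 to 0.15), Hadh (-0.01 to 0.15), Acaa2 (-0.02 to 0.18), Eci1 (-0.03 to 0.23), Eci2 (-0.11 to 0.06), Etfb (-0.05 to 0.12), Ucp2 (-0.01 to 0.45) and Ucp3 (-0.30 to 0.07). Otherwise Cpt1a was 0.00 without a filter, Acadvl 0.00 with DESeq2, voom and DESeq2 size factors and 0.01 without a filter and with the block, and Etfb -0.01 with library size alone. The causes were not tested. With the median transcript length in place of the longest, the TPM of 30 of 38 members moved by more than the spread between mice. With 3 mice per genotype, differences of the size seen for most members could not be told from the spread between mice.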

Other observations

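Relative to the other matrix enzymes of the same mouse, Hadha stood on the log2 scale at 1.30, 1.32 and 1.25 in WT and 1.38, 1.36 and 1.46 in LSD1-mKO. Hadhb stood at 1.64, 1.61 and 1.60 in WT and 1.71, 1.74 and 1.83 in LSD1-mKO. For both trifunctional protein subunits the WT mice were within a narrow range, WT replicate 1 included. Acaa1a stood at -2.61, -2.55 and -2.75 in WT and between -2.88 and -2.85 in LSD1-mKO. Part of the reads of Hadhb, Acaa1a and Etfb cannot be told from those of other genes. Cpt1b, with most of its words shared, had a difference of -0.06 with overlap.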
